A study of Homo sapiens with 12 samples.

Results

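The BCL2 family sets the threshold of mitochondrial apoptosis, and 10 of its genes were followed here after transcription was blocked: the pro-survival genes MCL1, BCL2 and BCL2L1, the BH3-only genes BCL2L11, BBC3, PMAIP1, BAD and BID, and the effectors BAX and BAK1. The genes were chosen by name, as MCL1 and its best known partners, and all 10 are among the 26334 gene symbols of the count table. Testing required a mean count of 10 or more across the 12 libraries, which 9 members reached and BBC3 did not. The libraries came from shA673-1c, a line labelled as Ewing sarcoma, a tumor of bone and soft tissue driven by a fusion of EWSR1 with an ETS gene. Cells were grown in DMEM with serum, blasticidin and zeocin and received 5 µM actinomycin D, which stops transcription by binding DNA, for 0, 1, 2 or 4 h. Each time had 3 libraries, labelled as biological replicates 1 to 3, of poly(A) RNA prepared with a stranded kit. All groups shared the line, the medium and the agent, and no vehicle series was among the samples. The labels do not say what the "sh" of the line's name targets, what the prefix CTL of the sample names means or whether the line is a single clone.

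Proteins of this family bind one another on the outer mitochondrial membrane. MCL1, BCL-2 and BCL-XL (the product of BCL2L1) hold BAX and BAK in check, BH3-only proteins such as BIM (BCL2L11), PUMA (BBC3) and NOXA (PMAIP1) occupy the groove of the pro-survival proteins, and free BAX and BAK permeabilize the membrane so that cytochrome c leaves it. MCL1 is known for a short-lived protein and a short-lived mRNA, and NOXA is its selective antagonist. Messenger RNAs that decay quickly often carry AU-rich elements in the 3′ UTR, built on the pentamer ATTTA (with U for T in the RNA). RNA levels were measured here, and protein levels were not.

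ATTTA pentamers were counted in the 3′ UTR of each member's canonical transcript in GENCODE version 44, reading the transcript strand only and counting overlapping matches. MCL1 (chromosome 1, 150560895 to 150579738, minus strand, GRCh38) had 10 in a 3′ UTR of 2817 bases, or 3.55 per kilobase. Of the 11387 tested genes with an annotated 3′ UTR, 79.1% had a lower density, 74.8% had at least 1 pentamer and the median density was 1.78 per kilobase. PMAIP1 (chromosome 18, 59899996 to 59904305, plus strand) had 5 (3.22 per kilobase), BCL2 (chromosome 18, 63123346 to 63320128, minus strand) 13 (2.46 per kilobase), BCL2L1 (chromosome 20) 3, BCL2L11 (chromosome 2) 8 and BID (chromosome 22) 2. No pentamer was in the 3′ UTR of BAX, BAK1, BAD or BBC3. The longer element TTATTTATT, which contains the pentamer, occurred once each in BCL2 and PMAIP1, and at least once in 10.1% of the tested genes. The windows below hold the densest cluster of pentamers in 30 bases (pentamers in capitals, transcript strand, 5′ to 3′, DNA letters, GRCh38) and are shown for MCL1 and PMAIP1, the members with the highest pentamer densities, and for BCL2 and BCL2L11, those with the most pentamers beside MCL1. The relation of pentamers to decay was not tested.
MCL1, chr1:150576216-150576245, minus strand: acctaATTTAactggtgaaATTTAaagtga
BCL2, chr18:63128352-63128381, minus strand: aaaaaaagATTTATTTATTTAagacagtcc
BCL2L11, chr2:111167091-111167120, plus strand: tgtatATTTAttttctgcttATTTAatgtc
PMAIP1, chr18:59903967-59903996, plus strand: aattttATTTAttttgcctATTTAtaatta
These letters describe the reference transcript only. Gene-level counts do not show which 3′ end the cells used.

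Library totals lay between 9147018 and 11194705 counts. Of 12 Ewing sarcoma marker genes, 11 passed the count filter, and their summed level ranged from 4806 to 6121 CPM (library-scaled counts) over the libraries. The highest at 0 h were CAV1 (mean 2492 CPM) and CCND1 (1678 CPM), beside 80.1 for FLI1, 38.2 for NR0B1 and 7.08 for NKX2-2. CD99, a defining surface marker, was listed at 0 in every library. CD99 lies in a pseudoautosomal region, where reads match both sex chromosomes of the reference, and how such reads were counted is not given, so the 0 does not show that the cells lacked it. None of 5 markers of blood, endothelium, epithelium, liver or muscle passed the count filter (highest mean 3.33 counts, summed level 0.197 to 1.09 CPM). JUN and IER2, immediate early genes with short-lived transcripts, fell by 0.89 (SE 0.10) and 0.84 (SE 0.096) log2 units per hour, in the direction the time labels imply. No spike-in was among the rows, so each slope below is relative to the library scaling. TMM scaling, the main one, assumes that most genes hold their share of the library, and under it the median slope of the 12032 tested genes was 0.0093 log2 units per hour. GAPDH and ACTB then rose by 0.15 (SE 0.013) and 0.12 (SE 0.025) log2 units per hour. Scaling to those genes instead moved the median slope of all tested genes to -0.13, and every member's slope down by 0.13 to 0.14. In bulk RNA, fewer cells and less RNA per cell cannot be told apart, and neither can a slower decay than that of the library as a whole and a true rise.

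All 3 pro-survival transcripts fell over the course. Under TMM scaling the effectors BAX and BAK1 rose, BAK1 by a call that most alternatives lost. The BH3-only genes went both ways, with BCL2L11 falling, BAD and BID rising and PMAIP1 not past the threshold. Roles were not tested against each other. By edgeR's quasi-likelihood test of the slope, with Benjamini-Hochberg adjustment over all tested genes and a threshold of 0.05, 4 of the 9 tested members fell and 4 rose. Among all tested genes 32.1% fell and 30.7% rose, so the members' counts in either direction were not far from the background. Under GAPDH and ACTB scaling, 6 of 9 fell and 0 rose (7 of 9 had an unadjusted p under 0.05). Of the 12032 tested genes, 7729 fell and 112 rose under that scaling. The order of the members stayed, as the differences between them were nearly unaffected by the scaling.

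**Figure D1:**
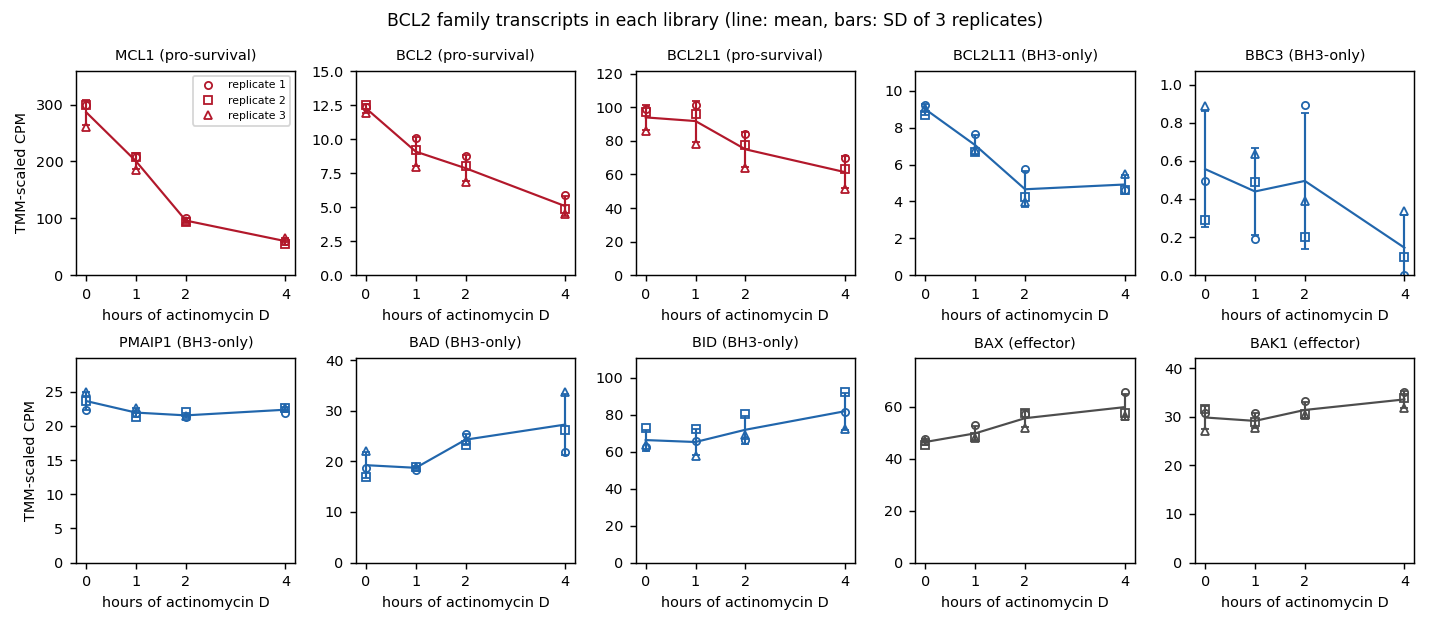
TMM-scaled CPM of each member (y axis, from 0, own scale per panel) against hours of actinomycin D (x axis), with 1 symbol per replicate, the line through the means and bars of 1 SD (n = 3). MCL1 fell from 261 to 300 CPM at 0 h to 54.1 to 66.3 CPM at 4 h, while BAX rose from 45.1 to 47.4 CPM to 56.4 to 65.6 CPM.

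MCL1, which keeps BAK and BIM bound, had the steepest fall of the 10 genes and was also the most abundant of them before the block. Its counts were 3042, 3108 and 2936 at 0 h, 2176, 2121 and 2035 at 1 h, 1012, 920 and 978 at 2 h, and 501, 559 and 592 at 4 h. The 4 times did not overlap. As TMM-scaled CPM the mean went from 287 ± 22.4 (SD, n = 3) through 200 ± 13.6 and 96.1 ± 3.90 to 59.9 ± 6.14, so that 20.9% of the starting level was left at 4 h. The slope was -0.59 log2 units per hour (SE 0.039, edgeR adjusted p = 4.78e-09), which corresponds to a half-life of 1.70 h, or 1.39 h under GAPDH and ACTB scaling. Slopes of replicates 1, 2 and 3 alone were -0.60, -0.64 and -0.50. The half-life assumes a constant rate, and the slope was -0.77 with 0, 1 and 2 h only and -0.56 with 1, 2 and 4 h only. Of the 12032 tested genes, 3.04% had a lower slope.

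BCL2, the founding pro-survival gene, was measured at low counts, 126, 130 and 134 at 0 h and 50, 50 and 40 at 4 h. Its CPM went from 12.3 ± 0.334 to 5.08 ± 0.751, or 41.4% of the start, and all 3 libraries of 4 h lay below those of the other times. The slope was -0.31 (SE 0.036, adjusted p = 1.47e-06 by edgeR), with a half-life of 3.22 h (2.23 h under GAPDH and ACTB scaling). BCL2L1, which encodes BCL-XL, had 1007, 1009 and 964 counts at 0 h and 591, 652 and 456 at 4 h. Its level at 4 h was 65.3% of that at 0 h, and these groups did not overlap. It fell more slowly than MCL1 and BCL2, with a slope of -0.16 (SE 0.031, edgeR adjusted p = 0.000183) and a half-life of 6.08 h (3.30 h under GAPDH and ACTB scaling). With 0, 1 and 2 h alone its slope was -0.15 and did not pass (edgeR adjusted p = 0.0804). The slopes of BCL2 and BCL2L1 were not tested against each other, and their differences from MCL1 are given with the ratios.

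**Figure D2:**
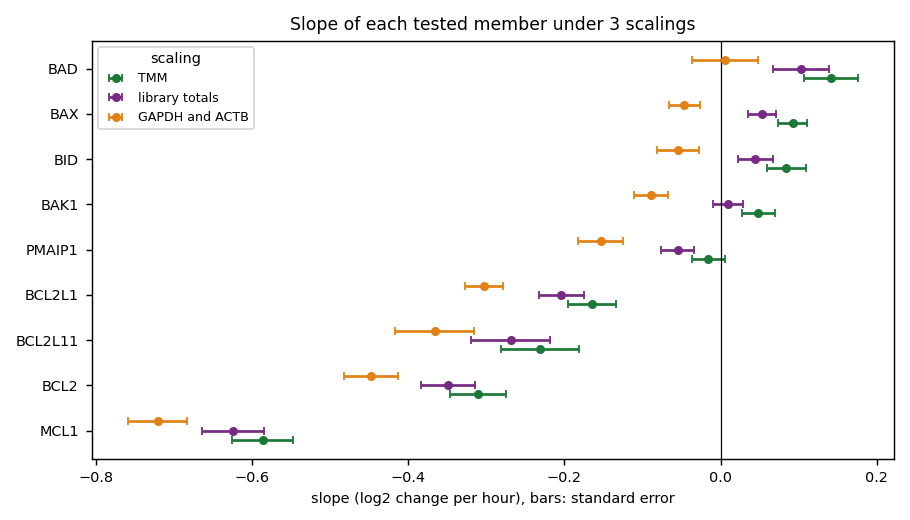
Slope in log2 units per hour (x axis, points with bars of 1 standard error) of the 9 tested members (y axis) under 3 scalings of the libraries. MCL1 lies lowest under each scaling (-0.59, -0.62 and -0.72), and BAX, BID and BAK1 lie above 0 under TMM and library totals and below 0 under GAPDH and ACTB scaling.

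Among BH3-only genes, BCL2L11 encodes BIM, which binds every pro-survival protein and can activate BAX and BAK. It had 94, 90 and 102 counts at 0 h, 80, 68 and 75 at 1 h, 58, 42 and 41 at 2 h, and 39, 48 and 49 at 4 h. The libraries of 2 h and 4 h overlapped in CPM, and both lay below those of 0 h and 1 h. Its slope was -0.23 (SE 0.050, edgeR adjusted p = 0.000783), with a half-life of 4.33 h (2.73 h under GAPDH and ACTB scaling), and the level at 4 h was 54.7% of that at 0 h. The half-life assumes a constant rate, whereas 51.8% of the 0 h level was already reached at 2 h. With 0, 1 and 2 h alone the slope was -0.45 (edgeR adjusted p = 0.00117). With 1, 2 and 4 h alone it was -0.16 and did not pass the threshold (edgeR adjusted p = 0.0810).

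PMAIP1 encodes NOXA, the antagonist of MCL1. Its CPM was 22.3, 23.6 and 24.96 at 0 h and 21.9, 22.6 and 22.6 at 4 h. These groups overlapped. The slope of -0.016 (SE 0.021) did not pass the threshold by edgeR (adjusted p = 0.529), and the level at 4 h was 94.6% of that at 0 h. Relative to GAPDH and ACTB, PMAIP1 fell by 0.15 log2 units per hour (edgeR adjusted p = 0.000104), and relative to library totals by 0.055 (adjusted p = 0.0370 by the same test).

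BAD, a BH3-only protein controlled by phosphorylation, rose from 18.8, 17.0 and 22.0 CPM at 0 h to 21.9, 26.2 and 33.7 CPM at 4 h, and replicate 3 of 0 h overlapped the 4 h range. Its slope was 0.14 (SE 0.034, edgeR adjusted p = 0.00188) and 0.0058 under GAPDH and ACTB scaling. BID, which caspase-8 cleaves to link death receptors with mitochondria, had 62.4, 72.8 and 63.5 CPM at 0 h and 81.3, 92.2 and 72.1 CPM at 4 h, and these groups also overlapped. Its slope was 0.084 (SE 0.025, edgeR adjusted p = 0.00771), and -0.054 under GAPDH and ACTB scaling. The call of BID was lost without replicate 1 (adjusted p = 0.0666) and under library totals (adjusted p = 0.104). It was also lost with 0, 1 and 2 h only (slope 0.069, edgeR adjusted p = 0.320).

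BBC3 encodes PUMA, a p53 target, and was near the limit of detection, with 0 to 10 counts in a library. Summed over the 3 libraries of a time it had 18 counts at 0 h (exact Poisson 95% interval 10.7 to 28.4), 14 at 1 h (7.65 to 23.5), 15 at 2 h (8.40 to 24.7) and 4 at 4 h (1.09 to 10.2). The intervals cover counting error only. The interval of 4 h lies below that of 0 h, but its slope in a fit with no count filter was -0.38 (SE 0.18) and missed the threshold by edgeR (adjusted p = 0.103), so a change was not established at this depth.

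Of the effectors, BAX rose under TMM scaling and relative to library totals, whereas BAK1 passed under TMM scaling and not relative to library totals. BAX, which moves from the cytosol to the membrane, had 47.4, 45.1 and 46.7 CPM at 0 h and 65.6, 57.5 and 56.4 CPM at 4 h, with no overlap. Its slope was 0.093 (SE 0.018, edgeR adjusted p = 0.000354), and -0.046 under GAPDH and ACTB scaling. BAK1, whose protein sits in the membrane and is held by MCL1 and BCL-XL, had 30.8, 31.6 and 27.1 CPM at 0 h and 35.1, 33.9 and 31.7 CPM at 4 h, groups that were adjacent but did not overlap. Its slope of 0.049 (SE 0.021) passed by a narrow margin in edgeR (adjusted p = 0.0494). That call was lost without replicate 1, 2 or 3 (adjusted p = 0.146, 0.104 and 0.180), and in DESeq2's Wald test (adjusted p = 0.0622). It was also lost under library totals (slope 0.0095, edgeR adjusted p = 0.695), with DESeq2's size factors (adjusted p = 0.0542) and with no count filter (adjusted p = 0.118), and with 0, 1 and 2 h only (adjusted p = 0.466) or 1, 2 and 4 h only (adjusted p = 0.0817). Relative to GAPDH and ACTB, BAK1 fell by 0.089 (edgeR adjusted p = 0.00125).

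Comparing 4 h with 0 h directly, without assuming a constant rate, 4 of 9 members were lower and 3 higher by edgeR, against 31.6% and 28.7% of all tested genes. The log2 differences were -2.26 (SE 0.085) for MCL1, -1.27 (SE 0.15) for BCL2, -0.87 (SE 0.16) for BCL2L11 and -0.61 (SE 0.13) for BCL2L1. They were 0.50 (SE 0.14) for BAD, 0.36 (SE 0.076) for BAX and 0.31 (SE 0.11) for BID. BAD lost its call without replicate 2 (edgeR adjusted p = 0.0891) and under library totals (adjusted p = 0.0546), and BID without replicate 1 (adjusted p = 0.169) and under library totals (adjusted p = 0.188). BAK1 differed by 0.17 (SE 0.085, adjusted p = 0.0972), and passed when the replicate number was added as a block (edgeR adjusted p = 0.0299). With that block, 4328 of the 12032 tested genes were lower and 4429 higher. GAPDH and ACTB scaling turned the sign of BAD, BID, BAX and BAK1 in this comparison.

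A ratio of 2 genes within a library does not depend on the scaling, so the partners were also set against MCL1. For 8 of the 9 partners the ratio to MCL1 was higher at 4 h than at 0 h in 3 of 3 replicates, without overlap. Only 3.04% of all tested genes had a lower slope than MCL1, so most genes would rise relative to it. A rising ratio is therefore not particular to these partners. BAX stood at 0.159, 0.151 and 0.179 counts per MCL1 count at 0 h and at 1.11, 1.06 and 0.850 at 4 h. As the geometric mean of the changes within replicates 1 to 3, the ratio rose 6.15-fold for BAX, 5.39-fold for BAK1, 6.71-fold for BAD, 5.89-fold for BID and 4.53-fold for PMAIP1. In an exact two-sided permutation test of the slope of the log2 ratio over the 369600 arrangements of the libraries, each of these 5 gave p = 2.71e-06, the smallest that these arrangements allow. BCL2L11 rose 2.62-fold relative to MCL1 (exact p = 5.41e-06), BCL2L1 3.11-fold (exact p = 1.62e-05) and BCL2 1.98-fold (exact p = 0.000739). The ratio of BBC3 overlapped between 0 h and 4 h (exact p = 0.570). These tests ignore the replicate numbers. With libraries rearranged only within a replicate number (13824 arrangements), the exact p was 7.23e-05 for BAX, BAK1, BAD, BID, PMAIP1 and BCL2L11. It was 0.000145 for BCL2L1, 0.00159 for BCL2 and 0.582 for BBC3. The 9 ratios share MCL1 as their denominator and are not independent of one another.

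**Figure D3:**
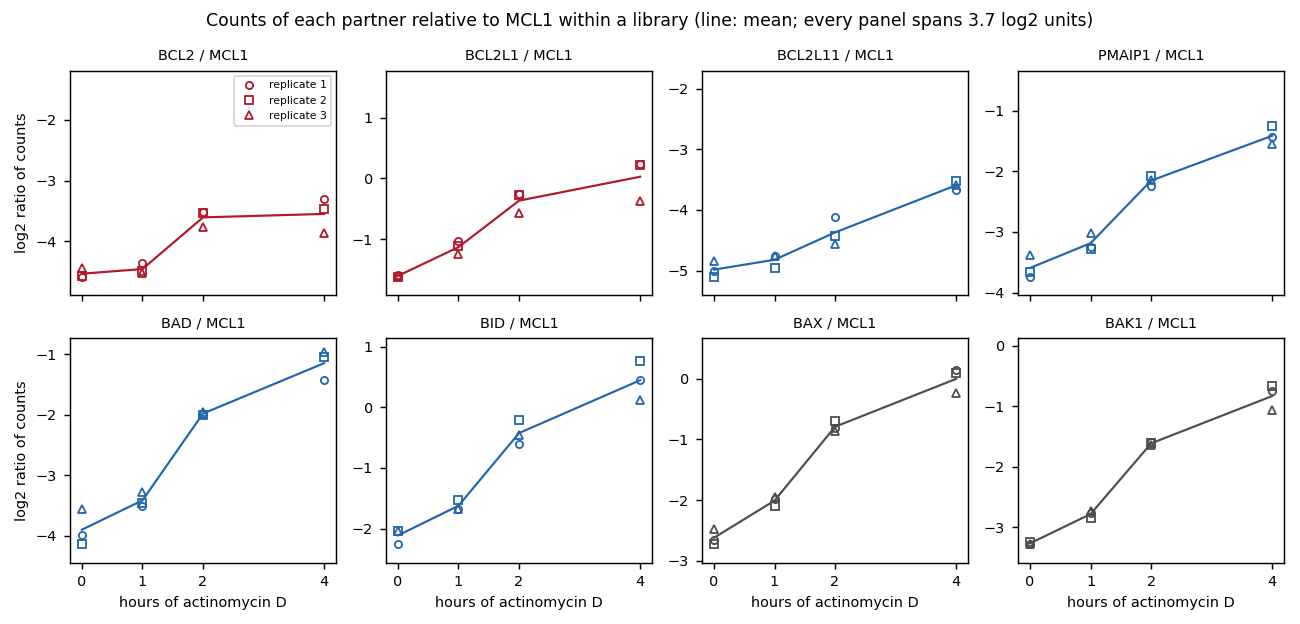
Log2 ratio of each partner's counts to MCL1 counts within a library (y axis, the same span in every panel) against hours of actinomycin D (x axis), with 1 symbol per replicate and a line through the means. The ratio rose in all 8 panels, by 1.98-fold for BCL2 and by 6.71-fold for BAD.

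Levels were compared between genes as TMM-scaled CPM per kilobase of the canonical transcript. At 0 h MCL1 stood first with 72.6 ± 5.66 (SD, n = 3), followed by BAX with 58.4 ± 1.46 and BCL2L1 with 36.5 ± 2.84. BID (30.4 ± 2.62) overlapped BCL2L1, and BAD (20.7 ± 2.75) came next. BAK1 (13.8 ± 1.11) and PMAIP1 (12.4 ± 0.694) overlapped, as did BCL2 (1.78 ± 0.0485) and BCL2L11 (1.76 ± 0.0562), and BBC3 was last with 0.301 ± 0.165. MCL1 made up 65.4% ± 0.219 of the summed level of the 3 pro-survival genes at 0 h and 38.4% ± 5.77 at 4 h. The sum of the pro-survival genes over that of BAX and BAK1 went from 1.54 ± 0.105 at 0 h through 1.15 ± 0.0781 and 0.647 ± 0.0282 to 0.438 ± 0.00363 at 4 h, and the 4 times did not overlap. These quotients do not depend on library scaling, but they do depend on the transcript lengths, which come from a reference that may differ from the one used for counting. They cover only the 3 pro-survival members and leave out BCL2L2, another pro-survival gene (mean 39.5 CPM at 0 h and 45.3 CPM at 4 h). They describe RNA and not the protein balance.

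MCL1 fell at hourly rates that varied between the intervals, though the planned contrast of the first hour with the later hours did not call it. Its log2 change per hour was -0.51 ± 0.015 (SD, n = 3) from 0 to 1 h, -1.06 ± 0.098 from 1 to 2 h and -0.34 ± 0.075 from 2 to 4 h, and the 3 intervals did not overlap between replicates. From 0 to 1 h, MCL1 was the 1 member of 9 that passed by edgeR (adjusted p = 0.00289), against 2.24% of all tested genes lower and 0.349% higher. That call was lost without replicate 1 (adjusted p = 0.139) or replicate 2 (adjusted p = 0.131). The MCL1 estimates in those fits were -0.512 and -0.510, beside -0.515 with all libraries. Only 31 of 12057 and 1 of 12055 tested genes were lower there, beside 269 with all libraries. With the replicate block BCL2 passed as well (edgeR adjusted p = 0.00565). With the block, 1261 of the 12032 tested genes were lower and 744 higher from 0 to 1 h. From 1 to 2 h, MCL1 (adjusted p = 2.69e-06) and BCL2L11 (-0.60, SE 0.16, edgeR adjusted p = 0.0215) fell, against 12.5% of tested genes lower and 3.76% higher. The BCL2L11 call was lost without replicate 1, 2 or 3 (adjusted p = 0.0561, 0.201 and 0.118). Those fits called 822, 614 and 1315 genes lower, beside 1504 with all libraries. From 2 to 4 h, MCL1 (edgeR adjusted p = 5.32e-05) and BCL2 (-0.63, SE 0.16, adjusted p = 0.00732) fell, against 18.3% lower and 12% higher. BCL2 lost its call without replicate 2 (adjusted p = 0.120), where 1334 genes were called lower, beside 2199 with all libraries.

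With the replicate block, BCL2L1 also fell from 1 to 2 h and from 2 to 4 h (edgeR adjusted p = 2.43e-05 and 4.53e-05). BAD, BAX and BID then rose from 1 to 2 h (adjusted p = 0.00324, 0.0308 and 0.0419), and BID from 2 to 4 h (adjusted p = 0.00450 by the same test). The block raised the number of calls among all 12032 tested genes too. From 1 to 2 h 2485 were lower and 2048 higher with it, and from 2 to 4 h 3046 were lower and 3050 higher.

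The first hour did not differ from the mean hourly rate of the later hours for any of the 9 members by edgeR (0 called, 0 at an unadjusted p under 0.05, and 0 in DESeq2's Wald test), against 0.175% of all tested genes. With the replicate block 0 were called and 2 had an unadjusted p under 0.05, where 647 of the 12032 tested genes were called lower and 899 higher. Contrasts of neighboring intervals were chosen after the interval values were seen, and such intervals share the libraries of the time between them. The hourly rate of MCL1 from 2 to 4 h was higher, that is a slower fall, than from 1 to 2 h by 0.72 log2 units per hour (SE 0.11, edgeR adjusted p = 0.00384), a call made upward for 1.48% of all tested genes and lost without replicate 1 or 2. Without those replicates, 8 of 12057 and 0 of 12055 tested genes were called upward. The second hour differed from the first by -0.54 (SE 0.14) and did not pass (edgeR adjusted p = 0.129), where 0.175% of all tested genes were called lower. This contrast passed with the replicate block (edgeR adjusted p = 0.000120), where 818 of the 12032 tested genes were called lower.

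**Figure D4:**
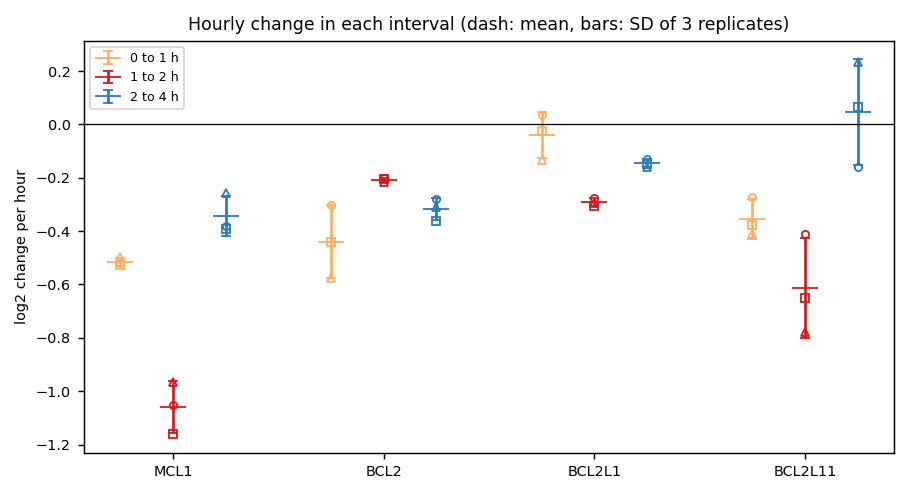
Log2 change per hour (y axis) of the 4 falling members (x axis) in each interval, with 1 symbol per replicate, a dash at the mean and bars of 1 SD (n = 3). MCL1 fell fastest from 1 to 2 h (-1.06), and the change of BCL2L11 from 2 to 4 h (0.046 ± 0.20) straddles 0.

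The pathway lists below are to be read against all tested genes, of which 32.1% fell and 30.7% rose by slope under TMM scaling. List counts under other settings have other backgrounds. Of the 12032 tested genes, 7729 fell and 112 rose under GAPDH and ACTB scaling. Under library totals 4704 fell and 2242 rose, and with the replicate block 4182 fell and 4356 rose. Of 13 further genes of the BCL2 family, 7 passed the count filter, with 1 falling and 2 rising and a median slope of 0.019, beside 0.0093 for all tested genes. The falling gene was BMF, a BH3-only gene, at -0.60 (SE 0.063, edgeR adjusted p = 4.97e-07), from 11.7 to 2.45 CPM, and with the replicate block 2 genes fell. BCL2L12 rose by 0.097 and BCL2L2, a pro-survival gene whose locus overlaps a readthrough transcript, by 0.051, and both were below 0 under GAPDH and ACTB scaling, where 5 genes fell and 0 rose. Of 16 tested genes of the mitochondrial pathway downstream, 4 fell and 6 rose (median 0.026), and under GAPDH and ACTB scaling 12 fell and 0 rose. The caspase inhibitors XIAP (-0.12) and BIRC2 (-0.14) fell, while BIRC5 (0.10), the channel gene VDAC1 (0.100) and the cytochrome c gene CYCS (0.090) rose under TMM scaling and were below 0 under GAPDH and ACTB scaling. CYCS and VDAC1 have processed pseudogenes, so their counts are uncertain.

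Among 11 tested genes that act on MCL1 protein turnover, 4 fell and 3 rose (median -0.039). For this list 7 fell under library totals, 6 with the replicate block and 9, with 0 rising, under GAPDH and ACTB scaling. GSK3B, a kinase that marks MCL1 for degradation, fell by 0.36 (SE 0.030, edgeR adjusted p = 4.73e-08). The ubiquitin ligase subunits FBXW7 (-0.24) and BTRC (-0.20) fell too, and DESI1 (0.096) and the stress kinase gene MAPK8 (0.084) rose under TMM scaling and were below 0 under GAPDH and ACTB scaling. Of 9 tested death receptor genes 8 fell and 0 rose (median -0.10, with 9 falling under GAPDH and ACTB scaling), led by FADD (-0.77, SE 0.052, edgeR adjusted p = 5.64e-09), the adaptor that recruits caspase-8, TNFRSF1A (-0.39) and RIPK1 (-0.32). Of 12 genes of the p53 axis 6 fell and 2 rose (median -0.13), and 10 fell and 1 rose under GAPDH and ACTB scaling, where the median slope of all tested genes was -0.13. PPM1D (-0.96) and BTG2 (-0.99) fell fastest, SESN2 fell by 0.49, and FDXR (0.22) and MDM4 (0.21) rose and stayed above 0 under GAPDH and ACTB scaling.

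Among 8856 genes with mean counts of 100 or more, the 5 whose log2 changes at 1, 2 and 4 h lay nearest to those of MCL1 (Euclidean distance over the 3 mean changes) were KCNE4, ABL2, OTX2, FOSL1 and PIM3, at distances of 0.10 to 0.18. MCL1 had changed by -0.51, -1.57 and -2.25, and KCNE4 by -0.62, -1.55 and -2.24. For PMAIP1 the nearest were RAB28, AGPAT5, IFT88, ETV1 and TRDN, at distances of 0.0082 to 0.029. RAB28 had changed by -0.11, -0.13 and -0.070, beside -0.10, -0.13 and -0.077 for PMAIP1.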

How the data were processed

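Poly(A) RNA of 12 libraries (3 per time) was sequenced by the authors, who deposited whole-number counts per gene symbol. The submitters' processing notes name FastQC, STAR and hg19. The counter, the strand setting and the tool versions are not given in the sources used here. Coordinates, transcript lengths and 3′ UTRs are from GENCODE version 44 (GRCh38), matched by symbol or another gene name, and no hg19 coordinate was used.

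The deposited counts went into edgeR 4.0.16 (R 4.3.3) with TMM factors, a minimum mean count of 10 and quasi-likelihood tests (glmQLFit and glmQLFTest), with time in hours as a number or as 4 groups, and checked on simulated data. P-values were adjusted over all 12032 tested genes (Benjamini-Hochberg, threshold 0.05). Half-lives were taken as -1/slope. For ratios, 0.5 counts were added to each gene. Alternatives were library totals, DESeq2 1.42.0 (size factors, Wald test), GAPDH plus ACTB scaling, other filters, fewer times, a replicate block and leaving out each replicate.

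The labels call the replicates biological without saying what they shared, and replicate pairs of a time differed by more than sampling noise (chi-square per degree of freedom 3.21 to 8.67). Libraries sharing a replicate number deviated from their time means in the same direction (r 0.323 to 0.633 in 18 pairs), so by the data the numbers pair the samples. The r of -0.419 to 0.0902 in 36 pairs of different numbers is no separate support. Deviations from a time mean cancel out within that time, which pulls these r values down. The members and lists were chosen with earlier results of these data known. Beside the 10 members, up to 3 falling and 3 rising genes per list with the largest slopes past the threshold, and with that sign in all 3 replicates, were named, with GAPDH, ACTB, JUN, IER2 and the 5 nearest genes of MCL1 and PMAIP1. The Ewing sarcoma markers served only as a check of the line (4 of 11 tested fell and 2 rose). 1 gene that this rule names is not reported here.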

Additional observations from a re-analysis of the deposited data

Results flagged for a closer look

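The hourly change of MCL1 differed between intervals: from 2 to 4 h it was higher than from 1 to 2 h by 0.72 log2 units per hour (edgeR adjusted p = 0.00384), with the fall slower in 3 of 3 replicates. The contrast was chosen after the interval values were seen. The edgeR adjusted p was 0.182 without replicate 1 and 0.171 without replicate 2, with estimates of 0.74 and 0.69. In those fits 8 of 12057 and 0 of 12055 tested genes were called upward, beside 178 with all libraries.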

How the results depend on the processing

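The falls of MCL1 and BCL2 over the course kept their direction and their call under every alternative run, and the ratios to MCL1 did so in all 53 alternatives, while with no count added the BBC3 ratio gave no value because 1 library had 0 counts. GAPDH and ACTB scaling turned the slopes of BID (-0.054), BAX (-0.046) and BAK1 (-0.089), and the 4 h against 0 h differences of BAD (-0.039), BID (-0.24), BAX (-0.19) and BAK1 (-0.38). The slope of PMAIP1 with 1, 2 and 4 h only was 0.0073. The number of members rising by slope was 2 with library totals, 0 with GAPDH and ACTB scaling, 2 with 0, 1 and 2 h only, and 2 to 3 when a replicate was left out. Of the 12032 tested genes, 2242 rose by slope with library totals and 112 with GAPDH and ACTB scaling. With 0, 1 and 2 h only, 1447 of 12060 tested genes rose, and 2968 to 3329 rose when a replicate was left out. At 4 h against 0 h, 7 members were lower with GAPDH and ACTB scaling, and 1 (library totals) or 0 (GAPDH and ACTB) was higher. Of the 12032 tested genes, 7612 were lower and 111 higher with GAPDH and ACTB scaling, and 2120 were higher with library totals. At 1 h against 0 h, 2 were lower with GAPDH and ACTB scaling and 2 with the replicate block, and 0 to 1 with a replicate left out. Of the 12032 tested genes, 537 and 1261 were lower in the first 2 of these settings, and 1 to 157 tested genes with a replicate left out. At 2 h against 1 h the count of members lower was 1 to 2 with a replicate left out, where 614 to 1315 tested genes were lower. At 4 h against 2 h the members lower were 4 with GAPDH and ACTB scaling, where 4857 of the 12032 tested genes were lower. With a replicate left out they were 1 to 3, beside 1334 to 1956 tested genes lower. The cause was not tested, other than that these scalings shift all genes. Beside the changes given in the report, the replicate block changed no other call of a member. Depth limits BCL2 (40 to 134 counts in a library) and BCL2L11 (39 to 102), and BBC3 lies below the filter.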
